A study of Mus musculus with 115 samples.

Results

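Transcripts of 9 genes that the liver expresses strongly (Alb, Gc, Apoc3, Fgb, Apoa1, Apoa2, Ttr, Rbp4 and Tat) were followed through mouse heart libraries, 9 of the 23930 genes that the sequencing panel reads. The genes were named, with their levels in these hearts already known, as liver transcripts present in heart libraries. Their levels here are therefore a description, and no test below supports the choice. The series measured heart RNA of C57BL/6JEiJ mice (wild type), of the same strain lacking the mitochondrial ADP/ATP carrier (C57BL/6JEiJ ANT1 -/-, here the knockout), and of knockout mice that also carry the mitochondrial ND6 P25L change. Every heart compared here had received 2.5e+11 vector genomes of an adeno-associated virus into the pericardial sac, so none of these groups is uninjected. The virus was either AAV2/9Des-Gfp, the control vector, or AAV2/9Des-Gfp-mAnt1, the Ant1 vector, where Des is the promoter name as labelled. RNA was taken 1, 3, 6, 9 or 12 months after injection, and neither the time, the age nor the sex is given per heart.

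Libraries of the same title number, genotype and vector code were summed as 1 heart. Wild type mice contributed hearts 23, 24, 25 and 70 with control vector and hearts 80, 81 and 83 with Ant1 vector. Knockout mice contributed hearts 35, 36 and 38 with control vector and hearts 20, 21, 22 and 27 with Ant1 vector. Knockout ND6 mice contributed hearts 20, 21 and 22 with control vector and hearts 5, 8 and 37 with Ant1 vector. The same number under another genotype is another heart. Hearts 61 and 91, knockout ND6, are labelled with the control vector under the title code that other samples use for the Ant1 vector, and were kept as a group of 2. In all, 22 hearts from 110 libraries entered the comparisons. The labels do not say that hearts of a group are separate animals, so p-values measure only the spread between these samples.

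Hepatocytes make most of the proteins of blood plasma. Albumin and the vitamin D-binding protein carry small molecules, fibrinogen forms the clot, and apolipoproteins coat the lipoprotein particles that move fat between tissues. Working heart muscle makes few of these transcripts and takes up the lipoproteins instead. Transcription of such genes in hepatocytes rests on promoters bound by liver-enriched factors such as the C/EBP proteins.

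The stretch just before the start of 3 members is shown, because motifs known from liver promoters could be looked up in it. Upstream stretches of 250 bases (RefSeq, GRCm38.p6) were searched for 7 of the 9 members. The members named below for a motif are among these 7, and the others were not searched. The first motif was GTTAAT. All motifs were sought on both strands. It was present in 6.43% of all 32851 such stretches, and in Alb, Gc and Fgb among the members. The capitals mark it. In Alb (chr5:90460620-90460869, plus strand) it lay 32 to 27 bases before the start from which the stretch was taken. That start lies upstream of the Alb start given below, chr5:90460897. In Gc (chr5:89457899-89458148, minus strand) it lay 52 to 47 bases before the start. In Fgb (chr3:83049864-83050113, minus strand) it lay on the other strand, 29 to 24 bases before the start, so it reads as ATTAAC.
Alb: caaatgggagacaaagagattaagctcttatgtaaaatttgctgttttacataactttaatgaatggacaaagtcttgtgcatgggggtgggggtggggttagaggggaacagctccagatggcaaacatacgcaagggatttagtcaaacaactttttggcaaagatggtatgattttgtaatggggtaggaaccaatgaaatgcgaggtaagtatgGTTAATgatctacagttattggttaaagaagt
Gc: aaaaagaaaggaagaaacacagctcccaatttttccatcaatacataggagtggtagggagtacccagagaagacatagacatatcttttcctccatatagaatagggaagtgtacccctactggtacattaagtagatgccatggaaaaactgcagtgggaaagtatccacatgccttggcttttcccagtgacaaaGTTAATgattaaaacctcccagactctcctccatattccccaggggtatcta
Fgb: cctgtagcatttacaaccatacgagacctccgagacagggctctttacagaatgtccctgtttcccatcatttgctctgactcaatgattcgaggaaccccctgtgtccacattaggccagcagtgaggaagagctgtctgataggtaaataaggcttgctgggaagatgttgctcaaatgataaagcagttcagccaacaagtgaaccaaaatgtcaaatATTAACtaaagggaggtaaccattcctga
The second motif, TTGCNNAA, which C/EBP proteins can bind, was present in 9.56% of all stretches and in those of Apoa2, Fgb, Alb and Rbp4. A plain TATAAA was present in 12.4% of stretches and in those of Apoa2 and Rbp4. These letters describe the stretch and say nothing of binding in these hearts.

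On GRCm38/mm10 the members lie on 7 chromosomes. Alb (chr5:90460897-90476602) and Gc (chr5:89417522-89457898) are both on chromosome 5. Apoa1 (chr9:46228580-46230466) and Apoc3 (chr9:46232933-46235636) lie side by side on chromosome 9. Apoa2 is at chr1:171225054-171226379, Fgb at chr3:83040141-83049863, Tat at chr8:109990437-109999803, Ttr at chr18:20665280-20674321 and Rbp4 at chr19:38116629-38125281. All 9 are protein-coding, and each is read by 1 amplicon, whose position the tables do not give.

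The libraries held 2893780 to 8531273 counts and the hearts 16827518 to 54779297. Slc25a4, the gene that encodes ANT1, was at 8459 to 11376 CPM (counts scaled to the heart's total, the unit of all levels below) in wild type hearts and at 0.219 to 2.03 CPM in knockout and knockout ND6 hearts with control vector. With Ant1 vector it was at 174 to 241 CPM in knockout hearts, and at 66.7 and 55.6 CPM in knockout ND6 hearts 5 and 37. The knockout ND6 heart labelled 8 under Ant1 vector was at 0.731 CPM, inside the control range, and hearts 61 and 91 were at 169 and 151 CPM. Heart muscle genes were high in all hearts: Tnnt2, troponin T of the sarcomere, was at 8592 to 11266 CPM. Heart 23, to which most of the following relates, had 10016 CPM of Tnnt2 and 4261 CPM of Myh6, the atrial-type myosin heavy chain. Heart 70 stood apart in another way: 9 lung markers summed to 1969.8 CPM there and to 1.16 CPM in heart 23. Changes of Tat and Rbp4 against wild type are therefore given with and without these hearts.

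Alb, which encodes albumin, showed the widest range. It was at 159 CPM in wild type control heart 23 (5344 counts, 95% Poisson interval 154.7 to 163.3), at 12.6 CPM in heart 24 (425 counts) and at 10.8 CPM in heart 25 (367 counts). The fourth wild type control heart, 70, had 0.247 CPM (8 counts). Over the 19 hearts other than 23, 24 and 25, Alb had a lowest value of 0.0320 CPM, a median of 0.189 CPM and a highest value of 1.72 CPM. Hearts 23, 24 and 25 were thus above every other heart, and the wild type control group was split between these 3 and heart 70. Intervals and floors here cover counting error only.

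The highest of the 19 was knockout ND6 heart 37 with Ant1 vector, whose 94 Alb counts came from all 8 of its libraries (1.10 to 2.23 CPM each). Next was knockout heart 21 with Ant1 vector, at 1.02 CPM. The knockout ND6 control hearts 20, 21 and 22 were at 0.393, 0.688 and 0.630 CPM, and knockout control hearts 35, 36 and 38 at 0.131, 0.195 and 0.165 CPM. The knockout control values do not overlap those of knockout ND6, but rest on 4 to 6 counts a heart. The share of all genes that separate these groups was not counted. Wild type hearts 80, 81 and 83 with Ant1 vector were at 0.0588, 0.0953 and 0.154 CPM, from 1 to 4 counts. All of these are small next to hearts 23, 24 and 25.

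Gc, the vitamin D-binding protein, followed the same order. It was at 29.8 CPM in heart 23 (1002 counts), 2.91 CPM in heart 24 (98 counts), 1.97 CPM in heart 25 (67 counts) and 0.0309 CPM in heart 70 (1 count). The other 19 hearts had a median of 0.0309 CPM and a highest value of 0.329 CPM, again in heart 37 (18 counts). Hearts 23, 24 and 25 did not overlap the rest.

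Apoc3, an apolipoprotein that slows the clearance of triglyceride-rich particles, was at 18.2, 1.10, 0.911 and 0.124 CPM in hearts 23, 24, 25 and 70. Its highest value among the 19 was 0.250 CPM, in knockout ND6 control heart 21, and 7 of the 22 hearts had no count. Fgb, the beta chain of fibrinogen, was at 13.3, 0.773, 0.911 and 0.124 CPM in the same order. Its highest value among the 19 was 0.256 CPM, in heart 37 (14 counts). For both, hearts 23, 24 and 25 were above the other 19, heart 23 by far the most.

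Apoa1, the main protein of high-density lipoprotein, was the lowest-counted member. It was at 4.20 CPM in heart 23 (141 counts), 0.327 CPM in heart 24 (11 counts), 0.294 CPM in heart 25 (10 counts) and had no count in heart 70. No other heart passed 0.146 CPM, which was 4 counts in knockout heart 21 with Ant1 vector. It fell under the low-count filter of the model across genes and has no fitted value. At these depths 3 counts, the limit that a count of 0 allows, correspond to 0.0892 CPM in heart 23.

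**Figure D1:**
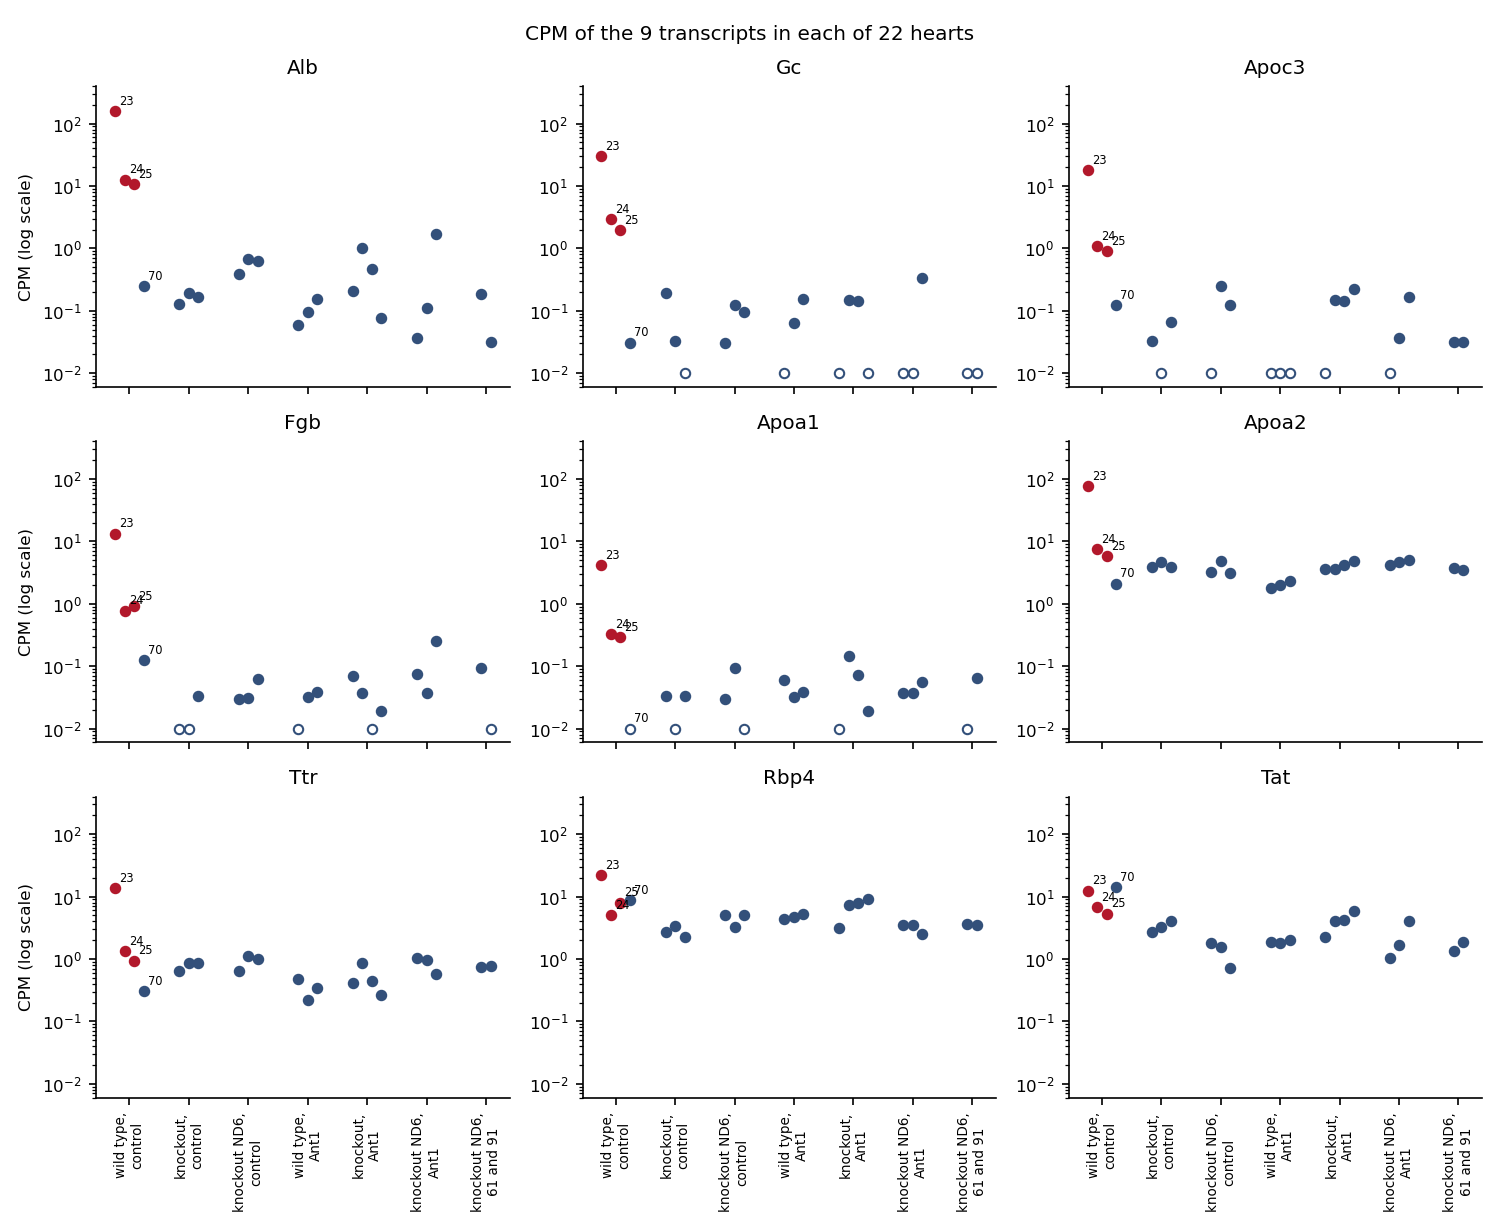
Level of each of the 9 transcripts (CPM, log axis) in each of the 22 hearts by group, 1 point a heart; wild type control hearts carry their numbers, hearts 23, 24 and 25 are red, and hearts with no count are open circles at the foot of the axis. Heart 23 is the highest point in every panel except Tat, where heart 70 is highest (14.3 against 12.4 CPM).

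Apoa2 and Ttr were read in every heart, with heart 23 on top. Apoa2, the second protein of high-density lipoprotein, was at 76.2 CPM in heart 23, 7.55 CPM in heart 24, 5.79 CPM in heart 25 and 2.10 CPM in heart 70. The other 19 hearts ranged from 1.77 to 4.98 CPM with a median of 3.77 CPM, so hearts 24 and 25 exceeded the highest of them only narrowly. Among the 19, wild type was low: hearts 70, 80, 81 and 83 were at 2.10, 1.77, 1.97 and 2.30 CPM. Every knockout and knockout ND6 heart was above these, from 3.12 to 4.98 CPM. Wild type hearts 23, 24 and 25 were above all of them, and the share of all genes separated like this was not counted.

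Ttr, transthyretin, carries thyroid hormone and the retinol-binding protein in blood. It was at 13.7 CPM in heart 23, 1.34 CPM in heart 24, 0.940 CPM in heart 25 and 0.309 CPM in heart 70. The other 19 hearts ranged from 0.222 to 1.12 CPM with a median of 0.653 CPM, and heart 25 lay inside that range. The 3 wild type hearts with Ant1 vector were at 0.471, 0.222 and 0.346 CPM.

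Repeat libraries of a heart gave nearly the same Alb level. Hearts 23, 24 and 25 were each read in 6 libraries, 2 in each of 3 library tables, and knockout control heart 35 was read in the same 3 tables. The single libraries of heart 23 had 139.9 to 175.1 CPM of Alb, those of heart 24 had 10.7 to 13.5 CPM and those of heart 25 had 8.93 to 13.5 CPM. By table, heart 23 had 152.6, 149.0 and 158.2 CPM. Heart 35, sequenced beside it, had 0.0906, 0.243 and 0.0812 CPM. The difference between the hearts is thus as large within each table.

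Ttr of heart 23 differed between tables. It was at 17.6 and 16.5 CPM in 2 tables and at 2.91 CPM in the third, a spread of 6.05-fold, where Alb spread over 1.06-fold, Apoa2 over 1.06-fold and Gc over 1.12-fold. Heart 24 showed the same table low for Ttr (0.434 CPM against 1.95 CPM, 4 and 24 counts). Hearts 25 and 35 did not, with 1.14 and 0.729 CPM there and 0.768 and 0.272 CPM in another table, on 3 to 13 counts a table. Why Ttr of heart 23 was low in that table was not tested.

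**Figure D2:**
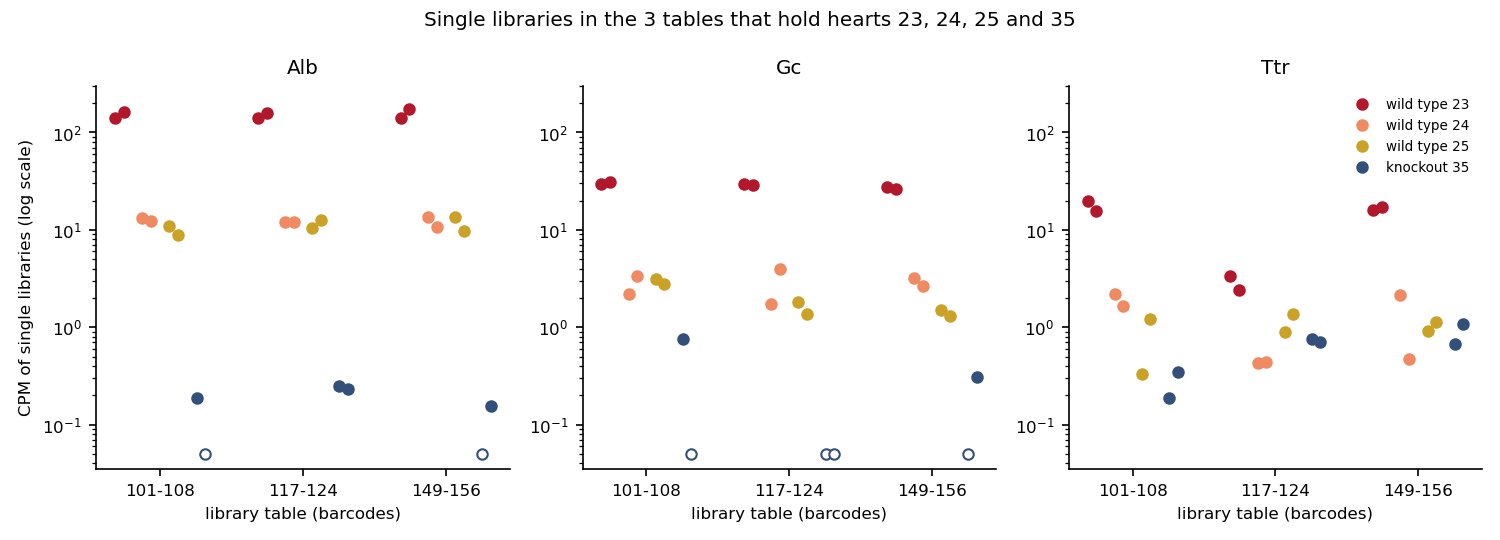
Single libraries of hearts 23, 24, 25 and 35 in the 3 tables that hold them, for Alb, Gc and Ttr (CPM, log axis; libraries with no count are open circles at the foot). Alb and Gc of heart 23 are level across tables, while its Ttr is at 2.91 CPM in 1 table and at 16.5 and 17.6 CPM in the others.

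Relative to Alb, 4 members had similar ratios in hearts whose Alb differed more than 10-fold. Per 100 counts of Alb, Gc had 18.8 counts in heart 23 (95% interval 17.5 to 20.1), 23.1 in heart 24 (18.3 to 28.8), 18.3 in heart 25 (13.9 to 23.7) and 19.2 in heart 37 (10.9 to 31.9). Apoc3 had 11.4, 8.71, 8.45 and 9.57 in the same hearts, and Apoa1 had 2.64, 2.59, 2.73 and 3.19. Fgb had 8.35, 6.12, 8.45 and 14.9, the last with an interval of 7.84 to 26.3. For these 4 genes the intervals of the 4 hearts, wide in heart 37, overlap. Other liver transcripts did not all do so. Per 100 counts of Alb, Mup3, a major urinary protein, had 9.21 in heart 23 and 52.1 (36.1 to 74.4) in heart 37, and Serpinc1 had 7.84 and 27.7 (17.2 to 43.1). Apob had 5.52 and 16.0 (8.59 to 27.7). Ces1c had 9.73 (8.88 to 10.7) in heart 23 and 15.8 (12.0 to 20.4) in heart 24. Heart 37 is of another genotype and vector and was sequenced in other tables. In those tables knockout heart 27 had 0.0764 and 0.0743 CPM of Alb, against 1.67 and 1.78 CPM in heart 37.

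Ttr had 8.63 counts per 100 Alb counts in heart 23, 10.6 in heart 24, 8.72 in heart 25 and 33.0 in heart 37. Apoa2 had 47.9, 59.8, 53.7 and 289. For both genes the ratio was highest in heart 37. After subtracting the median of wild type hearts 70, 80, 81 and 83 from each gene, a step chosen after the values were seen, Apoa2 had 46.7, 44.1 and 35.2 per 100 in hearts 23, 24 and 25. Ttr then had 8.43, 8.08 and 5.75.

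Rbp4 and Tat did not keep such a ratio. Rbp4, which carries retinol from liver to other tissues, had 13.8 counts per 100 Alb counts in heart 23, 39.8 in heart 24, 74.4 in heart 25 and 145 in heart 37. Tat, the tyrosine aminotransferase that glucocorticoids induce in liver, had 7.82, 54.4, 49.6 and 233. Their intervals in heart 23 do not meet those in the other 3 hearts. After the same subtraction Tat still had 6.60, 39.2 and 31.8 per 100 in hearts 23, 24 and 25, and Rbp4 had 10.6, 0.479 and 28.7.

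**Figure D3:**
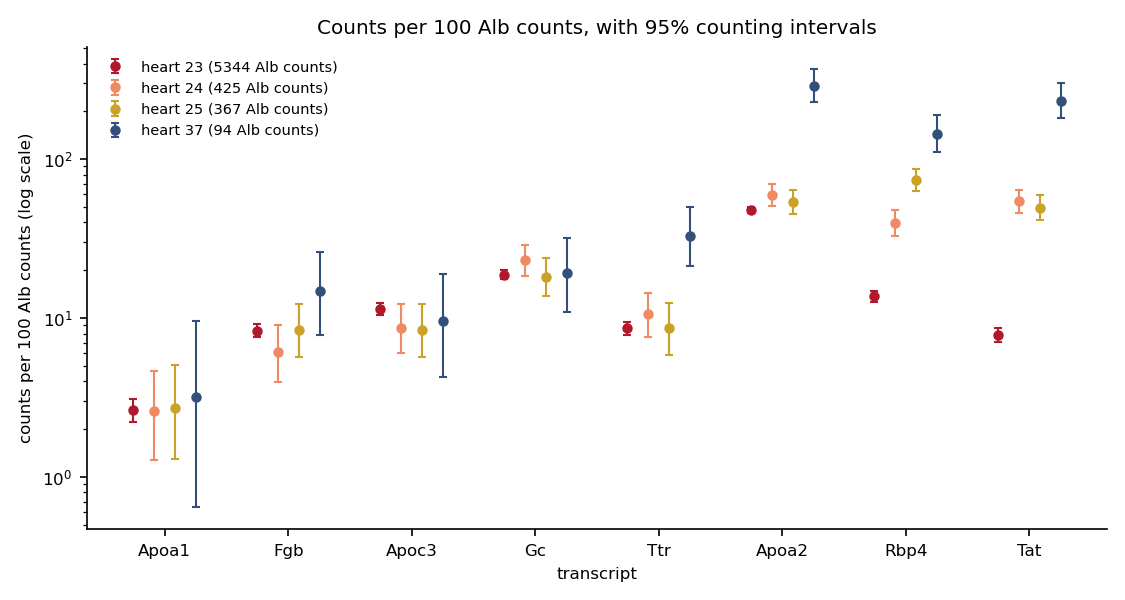
Counts of each transcript per 100 Alb counts (log axis) in hearts 23, 24, 25 and 37, with 95% counting intervals. Gc, Apoc3, Fgb and Apoa1 sit together across the 4 hearts (Gc 18.3 to 23.1), while Tat runs from 7.82 to 233 and Rbp4 from 13.8 to 145.

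Heart 23 was also above the rest for most other liver transcripts. Of 15403 genes passing the low-count filter, 25 had at least 5 CPM in heart 23 and at least 4 times the level of any other heart (0.162%). These were 6 members (Alb, Apoa2, Gc, Apoc3, Ttr and Fgb), 15 genes of a wider list of liver transcripts and 4 genes in no list. The 15 included Fabp1, a fatty acid-binding protein (14.9 CPM), Serpinc1, antithrombin (12.5 CPM), F2, prothrombin (10.3 CPM), and Fga, the alpha chain of fibrinogen (9.85 CPM). The 4 in no list were Ces1c (15.5 CPM), Cyp2c37 (6.91 CPM), Rdh7 (6.31 CPM) and Cyp2a12 (5.18 CPM). By the same measure heart 70 had 33 genes, of which 5 were lung markers and none was a liver gene of these lists, heart 37 had 1 gene (Myh1, a skeletal muscle myosin), and the remaining hearts had none. The genes named here were chosen after their values were seen.

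By list, 8 of the 9 members, 45 of 51 measured liver secreted proteins and 38 of 48 liver enzymes and transporters were higher in heart 23 than in all 19 hearts other than 23, 24 and 25. Over all 23930 genes the share was 6.37%. Hearts 23, 24 and 25 were all above all 19 for 6 members, 18 secreted proteins and 14 enzymes, against 0.811% of all genes. The members were chosen on these values, so their share carries no weight of its own.

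The secreted proteins with the highest level in heart 23 were not all of this kind. Hamp, the iron hormone hepcidin, was at 64.2 CPM there and at 17.2 to 216 CPM in the 19. Ahsg, fetuin A, was at 57.5, 28.1 and 24.2 CPM in hearts 23, 24 and 25 and at 5.04 to 32.9 CPM in the 19. Apoc1 was at 42.1, 4.97 and 8.55 CPM against 0.184 to 10.8 CPM, and Vtn, vitronectin, at 38.4, 33.7 and 45.0 CPM against 20.2 to 36.3 CPM. Hp, haptoglobin, was at 17.1 CPM in heart 23 and at 83.2 CPM in heart 70. Hamp and Hp thus did not follow Alb. Among enzymes, Oat (295 CPM), Adh1 (48.5 CPM) and Pck1 (38.9 CPM) had the highest levels in heart 23, and of these only Oat was above all 19 (at most 276.6 CPM).

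Of 10 liver transcription factors, 3 were higher in heart 23 than in all 19. These were Hnf4a, at 1.91 CPM against at most 0.0732 CPM, Nr1i3, the receptor CAR, at 0.744 CPM against at most 0.130 CPM, and Nr1i2, the receptor PXR, at 0.625 CPM against at most 0.441 CPM. Nr0b2 (11.2 CPM) and Nr5a2 (2.02 CPM) lay inside the range of the 19. Of 9 markers of other liver cells, 1 was higher in heart 23 than in all 19, Clec4f of Kupffer cells (0.149 against at most 0.146 CPM).

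For lists of other tissues, no gene of heart muscle, adipocytes, brown adipocytes, lung, skeletal muscle, red blood cells, pancreas, kidney or mesothelium was higher in heart 23 than in all 19. A single gene each of the T cell, intestine and brain lists was, at 0.447, 0.149 and 0.476 CPM: Cd8a, Fabp2 and Kl. The 10 heart muscle genes summed to 113057.7 CPM in heart 23 and to 93606.6 to 120173.6 CPM in the 19. The 9 lung markers summed to 168.6 CPM in knockout control heart 36 and to 268.0 CPM in knockout heart 22 with Ant1 vector, besides the 1969.8 CPM of heart 70. Alb was at 0.195, 0.474 and 0.247 CPM in these 3 hearts. Bulk RNA cannot tell fewer cells of a type from less RNA per cell.

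The level of each gene in another heart, as a percent of its level in heart 23, was compared over genes nearly absent elsewhere (a median under 0.1 CPM over the 19 hearts, and at least 20 counts in heart 23). Gc, Apoc3, Fgb and Apoa1 pooled were at 7.81% of heart 23 in heart 24, 6.24% in heart 25 and 1.23% in heart 37. The 51 other liver transcripts pooled were at 9.41%, 7.35% and 3.67%, with medians of 9.37%, 6.95% and 2.74%. Single members ranged from 5.83% (Fgb) to 9.77% (Gc) in heart 24 and from 5.01% (Apoc3) to 7.01% (Apoa1) in heart 25. The other liver transcripts spread more widely, from 0% to 33.3% in heart 24, and all of these percentages share heart 23 as their base.

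**Figure D4:**
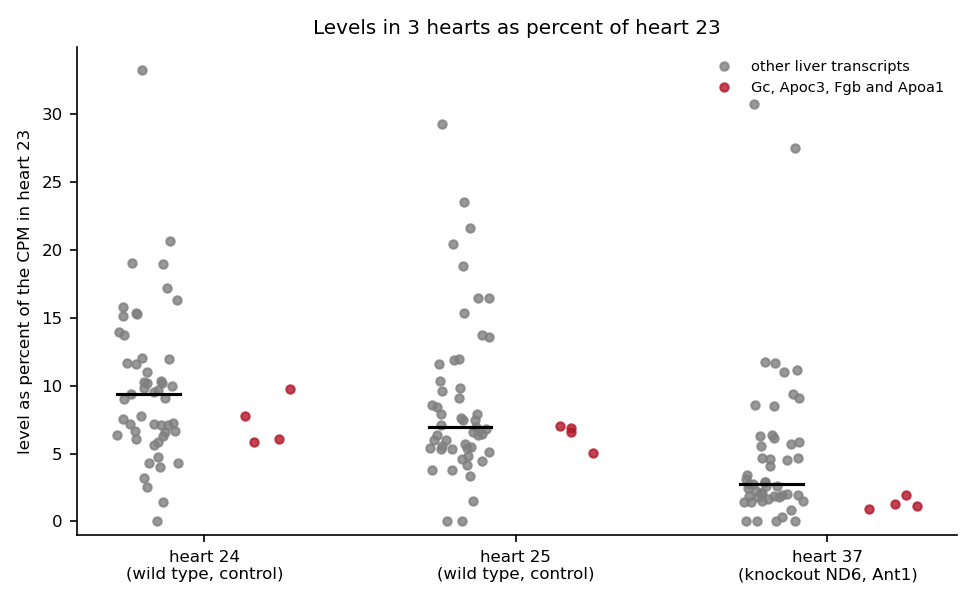
Level in hearts 24, 25 and 37 as percent of the CPM in heart 23, 1 point a gene, for Gc, Apoc3, Fgb and Apoa1 and for 51 other liver transcripts, whose median is the bar. The members are at 5.83 to 9.77% in heart 24 and at 0.907 to 1.93% in heart 37, where the median of the other transcripts is 2.74%.

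Tat was spread over hearts differently. It was highest in heart 70 (14.3 CPM, 463 counts), followed by heart 23 (12.4 CPM, 418 counts), heart 24 (6.87 CPM), knockout heart 27 with Ant1 vector (5.78 CPM) and heart 25 (5.35 CPM). Wild type hearts with Ant1 vector were at 1.88, 1.81 and 2.04 CPM, below all 4 wild type control hearts. Knockout control hearts 35, 36 and 38 were at 2.74, 3.25 and 4.06 CPM, and knockout ND6 control hearts 20, 21 and 22 at 1.78, 1.56 and 0.725 CPM. These 3 control groups did not overlap. The share of all genes separated in either of these ways was not counted. Knockout ND6 against knockout control was not called for Tat (edgeR, adjusted p = 0.161).

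With Ant1 vector, Tat was at 2.24, 4.10, 4.23 and 5.78 CPM in knockout hearts and at 1.03, 1.68 and 4.01 CPM in knockout ND6 hearts. Hearts 61 and 91 were at 1.35 and 1.89 CPM. Group means in descending order were 9.74 ± 4.31 CPM (SD, n = 4) in wild type control and 4.09 ± 1.45 CPM (SD, n = 4) in knockout with Ant1 vector. Knockout control followed with 3.35 ± 0.666 CPM (SD, n = 3), then knockout ND6 with Ant1 vector, 2.24 ± 1.57 CPM (SD, n = 3), and wild type with Ant1 vector, 1.91 ± 0.115 CPM (SD, n = 3). Knockout ND6 control was at 1.36 ± 0.558 CPM (SD, n = 3). Neighbours in this order overlapped in their hearts, except the last pair, at 1.81 CPM or more and 1.78 CPM or less. How many of all genes separate that pair was not counted.

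Rbp4 was highest in heart 23 (21.9 CPM), but the next was knockout heart 27 with Ant1 vector (9.23 CPM), ahead of heart 70 (8.78 CPM), heart 25 (8.02 CPM) and heart 24 (5.03 CPM). Knockout control hearts were at 2.71, 3.38 and 2.25 CPM and knockout hearts with Ant1 vector at 3.15, 7.36, 7.85 and 9.23 CPM, of which 3 were above all controls. Knockout ND6 hearts were at 5.17, 3.31 and 5.07 CPM with control vector and at 3.46, 3.51 and 2.49 CPM with Ant1 vector. Wild type hearts with Ant1 vector were at 4.35, 4.67 and 5.26 CPM.

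Levels of 2 fat cell genes are given beside Rbp4. Of the 4 knockout hearts with Ant1 vector, hearts 21, 22 and 27 had Adipoq, adiponectin, at 5.75, 6.93 and 7.06 CPM and Plin1, a lipid droplet protein, at 16.5, 11.2 and 17.0 CPM. Heart 20, where Rbp4 was 3.15 CPM, had 0.839 and 2.31 CPM, and the 3 knockout control hearts had 1.80 to 1.95 CPM of Adipoq and 3.86 to 5.65 CPM of Plin1. None of the 10 adipocyte markers was higher at an adjusted p of 0.05 or less in that comparison. Of the 10, 1 was lower, Cd36, beside 5.47% of all genes called. All 10 were detected in these hearts and summed to 2059 to 2126 CPM with Ant1 vector and 2355 to 2554 CPM without, a sum set mostly by Cd36, which heart muscle also makes. In wild type control hearts 23, 24, 25 and 70, Adipoq was at 1.88, 1.67, 6.49 and 9.06 CPM and Plin1 at 4.14, 3.27, 17.6 and 24.95 CPM. In wild type hearts 80, 81 and 83 with Ant1 vector Adipoq was at 1.35, 1.56 and 1.34 CPM and Plin1 at 3.12, 5.08 and 4.84 CPM. In that comparison none of 10 adipocyte and 4 brown adipocyte markers was called, beside 0.117% of all genes. Of these markers 5 and 4 had an unadjusted p under 0.05, beside 1795 of all 15403 genes. All of these 5 and 4 were lower with Ant1 vector. The part of fat cells in the Rbp4 level was not tested.

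**Figure D5:**
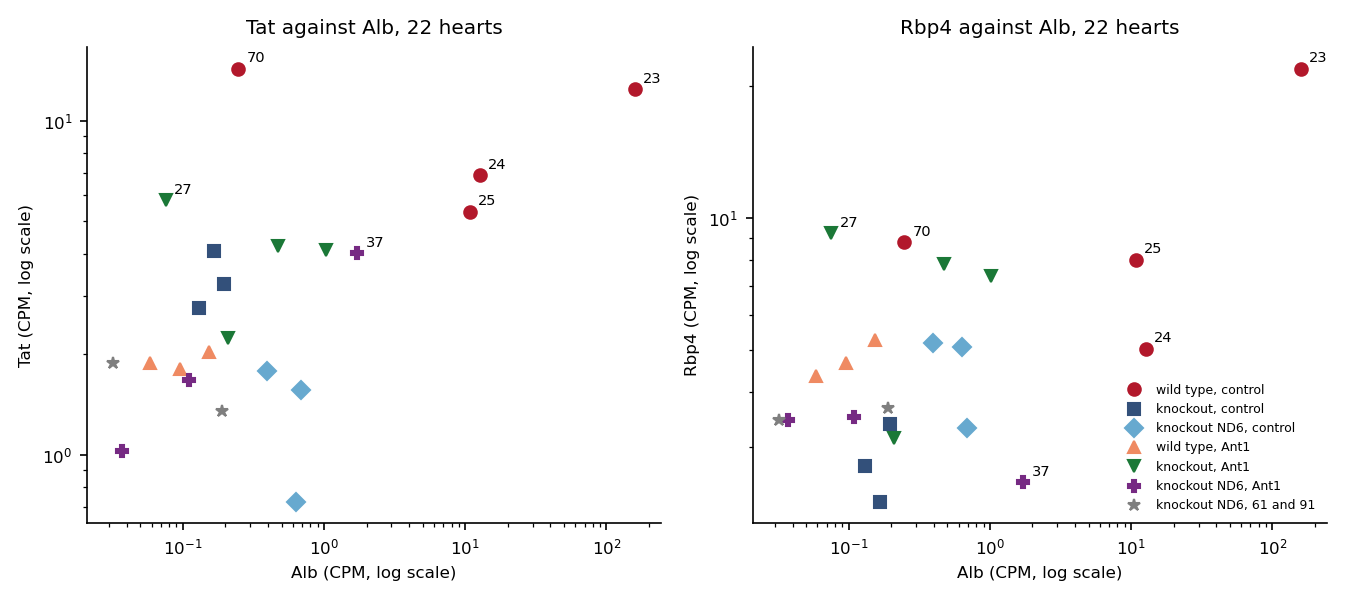
Tat and Rbp4 against Alb (CPM, log axes) in 22 hearts, with symbols by group. Heart 70 has 14.3 CPM of Tat at 0.247 CPM of Alb, and knockout heart 27 with Ant1 vector has 9.23 CPM of Rbp4 at 0.0753 CPM of Alb.

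Across hearts, members went with Alb to unequal degrees. On log2(CPM + 1) over 22 hearts Pearson's r with Alb was 0.98 for Gc, 0.94 for Apoc3, 0.94 for Fgb, 0.65 for Rbp4 and 0.59 for Tat. Over the 19 hearts without 23, 24 and 25 it was 0.76, 0.59, 0.60, 0.0090 and 0.14. These values describe points that share library totals and, in the first case, rest on 3 hearts.

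Among genes with a mean of at least 1 CPM, Rgn, a calcium-binding protein of liver, was most like Alb (r = 0.90, Spearman's rho = 0.45, 22 hearts), and r was 0.70 without heart 23. Pfkl was next (r = 0.83, rho = 0.70). Tat was most like Armcx3 (r = 0.83, rho = 0.78) and Cma1, a mast cell protease (r = 0.82, rho = 0.85). Rbp4 was most like Apoc1 (r = 0.87, rho = 0.71), with H2-Q10 second (r = 0.80, rho = 0.67). The nearest gene differed between Alb, Tat and Rbp4, while Apoc1 was among the 10 nearest of all 3 (rank 5, 4 and 1).

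Group comparisons asked how genotype and vector changed the transcripts. They used edgeR's quasi-likelihood test on all 15403 genes with Benjamini-Hochberg adjustment and a threshold of 0.05 on adjusted p. In knockout against wild type hearts, both with control vector, 7 of 8 members tested were lower and none higher, beside 14.4% of all genes called and 6.23% called lower. The members' median log2 change was -4.61, against -0.03 over all genes. Wild type control includes hearts 23, 24 and 25, whose values chose the members, so nothing is read from these counts. Without heart 23, 6 were called. Apoa2 fell by 2.46 on the log2 scale (SE 0.733, adjusted p = 0.027), and without heart 23 its change was -0.31 (adjusted p = 0.529). It lost the call without any 1 of the knockout control hearts too. Ttr had -2.35 (SE 0.803, adjusted p = 0.0537) and, without heart 23, -0.12 (adjusted p = 0.897). Alb fell at an adjusted p of 0.00123.

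Without hearts 23, 24 and 25 wild type control is heart 70 alone, assumed to vary like the other groups, and 6 members were tested. Tat was lower there (log2 change -2.09, adjusted p = 0.00828), as with all hearts (-1.54, SE 0.394, adjusted p = 0.011), a call lost without knockout control heart 35 (-1.41). Without heart 70, Tat had -1.30 (adjusted p = 0.0317) and Rbp4 -2.07 (adjusted p = 0.00173). Rbp4 was lower too (-1.65, adjusted p = 0.00794), against -1.97 (SE 0.389, adjusted p = 0.0015) with all hearts. Apoa2 was higher (0.99, adjusted p = 0.0303), and Alb did not pass (adjusted p = 0.867).

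In knockout ND6 against wild type hearts with control vector, 7 of 8 members were lower, beside 12.7% of all genes called and 5.97% called lower. The members' median was -4.07, against -0.01 over all genes. Here too the wild type control group holds hearts 23, 24 and 25, whose values chose the members, so nothing is read from these counts. Tat fell by 2.84 on the log2 scale (SE 0.43, adjusted p = 0.000154) and had -3.38 (adjusted p = 0.000236) without hearts 23, 24 and 25. Rbp4 fell by 1.27 (SE 0.371, adjusted p = 0.0271), but had -0.95 (adjusted p = 0.119) without those hearts and -0.69 (adjusted p = 0.135) without heart 23. Without heart 23, 4 members were called, and Apoa2 and Apoc3 lost the call (adjusted p = 0.336 and 0.0999). Rbp4 also lost the call when any 1 of the 3 knockout ND6 control hearts was left out. Alb (adjusted p = 0.00331) had 0.671 without the 3 hearts, and Tat alone passed there. Without heart 70, Tat had -2.60 (adjusted p = 0.000436) and Rbp4 -1.37 (adjusted p = 0.0274). Both comparisons share the wild type hearts.

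Knockout ND6 and knockout hearts with control vector were compared without wild type hearts. No member was called in edgeR, beside 1.06% of all genes, none was called with DESeq2 either, and 1 had an unadjusted p under 0.05. That was Tat, with a log2 change of -1.30 (SE 0.447, adjusted p = 0.161).

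Ant1 vector against control vector was compared within each genotype. No library table held both arms of a genotype, so in these comparisons, and in the differences between them, vector and table cannot be told apart. In wild type hearts 2 members were lower, Alb (adjusted p = 0.0482) and Tat (log2 change -2.35, SE 0.424, adjusted p = 0.0417), beside 0.117% of all genes called and 0.0649% called lower. All 8 had an unadjusted p under 0.05, beside 1795 of all 15403 genes. The control arm holds hearts 23, 24 and 25, whose values chose the members, so nothing is read from these counts. Without hearts 23, 24 and 25, Tat had -2.89 (adjusted p = 0.00452) and Alb did not pass (adjusted p = 0.841). Without heart 70, 8 members were called, Tat among them (-2.10, adjusted p = 0.0255). Leaving out heart 24, 25, 80, 81 or 83 left no member called.

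In knockout hearts 1 member was higher with Ant1 vector, Rbp4 (log2 change 1.32, SE 0.385, adjusted p = 0.049), beside 5.47% of all genes called and 2.19% called higher. It lost the call when heart 35, 36, 38, 21, 22 or 27 was left out. In knockout ND6 hearts no member was called in edgeR, beside 2.53% of all genes, and none had an unadjusted p under 0.05. With DESeq2, 0 were called in this comparison.

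The vector's effect was compared between genotypes for Tat and Rbp4 in the same model. The log2 change of Tat with Ant1 vector was -2.35 in wild type, 0.30 in knockout and 0.78 in knockout ND6 hearts. Knockout exceeded wild type by 2.65 (SE 0.574, adjusted p = 0.0396) and knockout ND6 exceeded it by 3.13 (SE 0.613, adjusted p = 0.0373). The log2 change of Rbp4 was -1.20 in wild type and 1.32 in knockout hearts, which differ by 2.51 (SE 0.538, adjusted p = 0.0396). Of the 24 such differences over 8 members and 3 pairs of genotypes, the other 21 had an adjusted p of 0.101 or more. The share of all genes past the threshold for these differences is not given here. The count is therefore not read as a result about the members. Without heart 70 the 3 differences were 2.41 (adjusted p = 0.0541) and 2.88 (adjusted p = 0.0604) for Tat and 2.61 (adjusted p = 0.0516) for Rbp4. Leaving out single hearts gave 0 to 3 such differences past the threshold, and none remained without knockout control heart 36, knockout ND6 control heart 20 or 21, or any 1 of the wild type hearts with Ant1 vector.

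Of 60 genes tested from the wider liver list, 29 were lower and 2 higher in knockout than in wild type hearts. Their median log2 change was -1.56, and 6.23% of all genes were called lower. Some of the 60 passed the low-count filter only through hearts 23, 24 and 25, where they are high. For such genes a lower level in knockout was fixed in advance, so nothing is read from the list counts. Agt, angiotensinogen, was higher (1.87, SE 0.304, adjusted p = 0.000251): it was at 30.8, 16.0 and 18.8 CPM in the 3 knockout control hearts and at 4.52 to 8.26 CPM in wild type control. Vtn was lower (-0.66, SE 0.116, adjusted p = 0.000543), as was Itih4 (-1.53, SE 0.332, adjusted p = 0.00344). Fabp1 was called lower too (adjusted p = 0.00193). But it was at 14.9, 1.72 and 1.06 CPM in hearts 23, 24 and 25, with a median of 0.0730 CPM over the other 19. Nothing is therefore read from the Fabp1 call. In knockout ND6 against wild type hearts 25 of the list were lower and 2 higher, beside 5.97% of all genes called lower. Itih4 was lower there as well (-1.63, SE 0.333, adjusted p = 0.00259). Agt in knockout hearts thus went against the list's direction. Without hearts 23, 24 and 25 the list counts were 5 lower and 3 higher for knockout, and 6 lower and 3 higher for knockout ND6, of 49 genes tested.

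Agt also changed between groups without wild type hearts. It was lower in knockout ND6 than in knockout control hearts (-2.31, SE 0.342, adjusted p = 0.00183), with Adh1 the only other of the list (-0.88, SE 0.199, adjusted p = 0.0336). It was lower with Ant1 vector in knockout hearts (-2.01, SE 0.306, adjusted p = 0.00182), at 5.09 to 5.99 CPM, and was the only gene of the list called there. No gene of the list was called for the vector in wild type or knockout ND6 hearts by edgeR. There 41 and 4 had an unadjusted p under 0.05, beside 1795 and 3008 of all 15403 genes. DESeq2 called 15 and 0, and its share over all genes is not given, so nothing is read from these counts.

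Among partners that take up or remodel lipoproteins and retinol, several had high levels in heart. Lpl, the lipase at the vessel wall, was at 4731 CPM in heart 23, Cd36, a fatty acid transporter, at 1765 CPM, Gpihbp1, which anchors the lipase, at 222 CPM, Apoe at 152.6 CPM and Lrp1, a lipoprotein receptor, at 146.8 CPM. Of 25 such genes measured, 4 were higher in heart 23 than in all 19, and 22 were tested. Lipc, the hepatic lipase, was among these 4, at 0.952 CPM in heart 23 against at most 0.235 CPM. In knockout against wild type hearts 1 was higher, Mttp, which loads lipid onto apolipoprotein B (1.40, SE 0.21, adjusted p = 0.000111), and 2 were lower, Apoe (-0.48, SE 0.113, adjusted p = 0.00669) and Pltp (-0.38, SE 0.126, adjusted p = 0.047). In knockout ND6 against wild type hearts Mttp (1.44, SE 0.209, adjusted p = 9.44e-05) and Scarb1 (0.58, SE 0.15, adjusted p = 0.0144) were higher and Angptl4, an inhibitor of the lipase, was lower (-1.80, SE 0.448, adjusted p = 0.0112). Their median changes, 0.00 and -0.15, lie near those of all genes, -0.03 and -0.01, and 3 called of 22 in each is near the 14.4% and 12.7% called over all genes. With Ant1 vector in knockout hearts Apoe was higher (0.51, SE 0.113, adjusted p = 0.0136) and Cd36 lower (-0.37, SE 0.109, adjusted p = 0.0478).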

How the data were processed

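Each library was made by the study with an Ion AmpliSeq transcriptome panel, in which every gene is read by a short amplified fragment, and sequenced on an Ion Torrent S5. The deposited tables hold raw counts per amplicon, whole numbers with no normalization by the authors, in 14 tables of 8 libraries. The genome build is mm10 per the submitters' processing notes, and no aligner or counter is named there. Of 115 samples, 112 are such libraries and 3 are single-nucleus samples, not analysed here. Gene symbols that had turned into dates (27) were restored, and libraries of a heart were summed. Libraries a and b of heart 80, whose label and title code differ, went into no group.

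CPM used TMM-scaled totals for hearts and plain totals for single libraries. Heart counts were fitted with edgeR 4.0.16 (R 4.3.3, limma 3.58.1): filterByExpr, TMM, 7 groups in 1 quasi-likelihood fit, Benjamini-Hochberg adjustment over 15403 genes, threshold 0.05. The code was tested on simulated data. DESeq2 1.42.0, other filters and each heart left out were alternatives. Intervals are exact 95% Poisson, or binomial for ratios of counts. The members and lists were chosen with earlier results of these data known. The text names all members, the 5 genes of each list highest in heart 23, up to 4 called genes per list and comparison, Myh6, Tnnt2, and the genes most like a member; other genes were chosen after their values were seen. Some genes that this rule names are not reported here. Where a model needs a group of 1 heart, that heart is assumed to vary like the others.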

Additional observations from a re-analysis of the deposited data

Results flagged for a closer look

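In wild type control, a group of 4 hearts, heart 23 was far from the other 3 for 7 of the 9 members, by Dixon's ratio of the gap to the whole range, which was above the 95% critical value for 4 samples in each case. The values in heart 23 were 159.1 CPM for Alb (ratio 0.922), 29.82 CPM for Gc (0.903), 18.19 CPM for Apoc3 (0.946), 13.27 CPM for Fgb (0.94), 4.197 CPM for Apoa1 (0.922), 76.22 CPM for Apoa2 (0.926) and 13.72 CPM for Ttr (0.923). The members summed to 348.8 CPM there (0.961), and to 38.5, 35.0 and 26.0 CPM in hearts 24, 25 and 70. Rbp4 and Tat did not meet the rule. In knockout with Ant1 vector, the other group of 4, no member did. The members were chosen with these levels known, so the choice itself favours such values and nothing is read from them; chance alone flags about 1 in 20 groups.

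The log2 change with Ant1 vector differed between genotypes by the test of the difference itself for Tat and Rbp4. The share of all genes that pass this test is not given here, so the differences are not read as particular to these genes. For Tat, knockout exceeded wild type by 2.648 (adjusted p = 0.0396, edgeR) and knockout ND6 exceeded wild type by 3.126 (adjusted p = 0.0373). For Rbp4, knockout exceeded wild type by 2.511 (adjusted p = 0.0396). All 3 share the wild type hearts, among which Tat was higher in each of the 4 control hearts than in any of the 3 with Ant1 vector. None of the 3 passed without heart 70 (adjusted p = 0.0541, 0.0604 and 0.0516), and no member's difference passed without knockout control heart 36, knockout ND6 control heart 20 or 21, or any 1 wild type heart with Ant1 vector. Without hearts 23, 24 and 25, which leaves heart 70, the heart with the highest lung markers and Tat, as the only wild type control, the differences were 3.191 (adjusted p = 0.0126), 3.672 (adjusted p = 0.00697) and 2.183 (adjusted p = 0.0195).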

How the results depend on the processing

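No paired analysis was possible because the groups compared share fewer than 2 title numbers. Of the counts of called genes under alternatives, 148 stayed within 1.5 times the value reported and 79 did not; the cause was not tested. The share of all genes called under each alternative is not given here, so no count below is read as a result about these genes. Counts of members called were as follows. Knockout against wild type (7 called): 3 without hearts 23, 24 and 25, which was chosen after seeing the data, and 5 to 9 with each heart left out. Knockout ND6 against wild type (7): 4 with only the groups compared, 1 without the 3 hearts, 4 to 9 over single hearts, lowest without heart 23 or knockout ND6 control heart 20 or 22 and highest without heart 70. Knockout ND6 against knockout (0): 2 with only those groups and 2 with each library as a replicate, 0 over single hearts. Ant1 vector in wild type (2): 4 with no low-count filter, 1 with libraries a and b only, 0 with hearts 61 and 91 as Ant1 vector, 4 without hearts 27 and 37, 0 with only those groups, 8 with each library as a replicate, 6 with DESeq2, 1 without the 3 hearts, and 0 to 8 over single hearts. Ant1 vector in knockout (1): 0 with no filter, with libraries a and b, without hearts 27 and 37 and with only those groups, 0 to 1 over single hearts. Ant1 vector in knockout ND6 (0): 2 with each library as a replicate, 0 over single hearts. For the wider liver list, knockout against wild type (31) gave 48 with no filter, 20 with libraries a and b, 18 with only those groups, 8 without the 3 hearts and 18 to 36 over single hearts. Knockout ND6 against wild type (27) gave 43, 14 with only those groups, 9 without the 3 hearts and 11 to 33. Knockout ND6 against knockout (2) gave 4 with only those groups, 7 by library and 1 to 2. Ant1 vector in wild type (0) gave 2 with no filter, 1 with hearts 61 and 91 as control vector, 4 without hearts 27 and 37, 16 by library, 15 with DESeq2, 4 without the 3 hearts and 0 to 18, the last without heart 70. In knockout (1) it gave 2 without hearts 27 and 37, 2 with only those groups, 9 by library and 1 to 2. In knockout ND6 (0) it gave 2 without hearts 27 and 37, 11 by library and 0 to 1. The vector-by-genotype differences past the threshold (3) were 0 to 3 over single hearts. Without hearts 23, 24 and 25 the log2 change turned positive for Alb (1.201, knockout ND6), Apoa2 (0.829 and, for knockout, 0.993) and Gc (1.326 and 1.209) against wild type, where Alb and Gc rest on 8 and 1 counts in heart 70 and are no bounds. Of the 10 genes most like the summed members, 4 were shared when single libraries were used, 1 with Spearman's rho, 1 without heart 23 and 0 with no minimum mean. Apoc3, Fgb, Gc and Apoa1 were at or near 0 in most hearts, so differences among those hearts were not detectable at this depth.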

Other observations

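Libraries a and b of wild type heart 80 carry the control vector label under the title code that other samples use for the Ant1 vector, and entered no comparison. Alb was at 0.124 and 0.372 CPM in them, Tat at 4.59 and 3.35 CPM, Rbp4 at 4.09 and 3.22 CPM and Apoa2 at 2.11 and 1.36 CPM. The libraries c and d of the same number, labelled with the Ant1 vector, had 1.88 CPM of Tat together and 0.0588 CPM of Alb.

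Cyp2a5, a cytochrome P450, was at 11.3 CPM in heart 23, and higher in heart 70, at 129.7 CPM, and in knockout heart 22 with Ant1 vector, at 33.8 CPM. It was at 9.71 CPM in knockout control heart 36. Pigr, the receptor that carries immunoglobulin A across epithelia, was at 6.91, 15.3, 3.14 and 1.36 CPM in these hearts. Scgb1a1, a secreted protein of airway club cells, was at 0.0595 CPM in heart 23 and at 1658, 222 and 145 CPM in the other 3. These genes were chosen after their values were seen.

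Serpina1e, an alpha-1 antitrypsin gene with near-identical copies that make its counts uncertain, was at 0.357 CPM in heart 23, inside the range of 0.0928 to 0.641 CPM of the 19 hearts other than 23, 24 and 25. Cps1, a urea cycle enzyme, was at 2.89 CPM in heart 23 and at most at 0.184 CPM in those 19. Both were chosen after their values were seen.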
